A study of Homo sapiens with 18 samples.

Results

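The chemokine and homing receptors of GM12878 cells were taken as all 8 genes whose symbol in the expression table was CXCR3, CXCR4, CXCR5, CCR6, CCR7, CCR10, ACKR3 or GPR183, out of 17155 genes in the table. All 8 were found, and 6 of them had a mean of at least 10 normalised reads and were tested; CXCR5 and CCR6 lay below that level. GM12878 is a human lymphoblastoid line, B cells immortalised by Epstein-Barr virus, whose membrane protein LMP1 signals to NF-kB without a ligand. The study removed each of the 5 NF-kB subunits from it with CRISPR guides carried by lentivirus. There were 6 groups of 3 libraries: cells with guides against cRel (gene REL), p50 (NFKB1), p52 (NFKB2), RelA (RELA) and RelB (RELB), and control cells with the non-targeting pxpr guide. All groups, control included, passed through transduction and 5 days of puromycin at 3 µg/ml, and loss of each subunit was checked at the protein level by immunoblot, per the labels' protocols. All come from 1 cell line, and no source used here says whether a knockout was a clone or a pool of transduced cells.

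Chemokine receptors are G-protein-coupled receptors that steer lymphocytes along gradients of small secreted proteins. CCR7 brings B and T cells toward the T zone of lymph nodes, CXCR5 draws B cells into follicles, and CXCR4 responds to CXCL12 in bone marrow and in the germinal centre dark zone. CXCR3 responds to the interferon-induced ligands CXCL9, CXCL10 and CXCL11, CCR6 to CCL20, and CCR10, a receptor of IgA plasma cells and skin-homing T cells, to CCL27 and CCL28. ACKR3 is an atypical receptor that binds CXCL12 without classical G-protein signalling and clears it, and GPR183, also called EBI2 because it was found as a gene induced by Epstein-Barr virus, senses an oxysterol that places B cells at the outer edge of follicles. NF-kB subunits act as dimers: p50 mostly with RelA or cRel in the canonical pathway, and p52 mostly with RelB in the non-canonical one.

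The 250 bases upstream of the annotated start are shown for 3 receptors whose transcripts went different ways when p50 or RelB was targeted: CXCR3, which was lower in both, CXCR4, which was lower in 1 and higher in the other, and GPR183, which was higher in both. They come from RefSeq on GRCh38.p14, chrX:71618512-71618761 on the minus strand for CXCR3, chr2:136118150-136118399 on the minus strand for CXCR4 (the first of its 3 listed starts) and chr13:99307400-99307649 on the minus strand for GPR183, and are written 5′ to 3′ on the gene's strand. Capitals mark GGGNNNNNCC on either strand, a loose form of the NF-kB site, and TATAAA on the gene's strand.
CXCR3: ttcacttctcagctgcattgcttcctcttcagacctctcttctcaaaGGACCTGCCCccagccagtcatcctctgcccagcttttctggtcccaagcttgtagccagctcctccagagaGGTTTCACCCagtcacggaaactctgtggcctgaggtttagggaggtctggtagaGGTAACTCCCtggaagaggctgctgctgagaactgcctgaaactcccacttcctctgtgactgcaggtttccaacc
CXCR4: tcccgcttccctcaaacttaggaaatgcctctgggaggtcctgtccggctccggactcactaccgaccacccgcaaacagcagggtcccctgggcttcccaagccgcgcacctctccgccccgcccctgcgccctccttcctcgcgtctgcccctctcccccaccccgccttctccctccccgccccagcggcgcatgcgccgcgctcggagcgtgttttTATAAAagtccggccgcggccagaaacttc
GPR183: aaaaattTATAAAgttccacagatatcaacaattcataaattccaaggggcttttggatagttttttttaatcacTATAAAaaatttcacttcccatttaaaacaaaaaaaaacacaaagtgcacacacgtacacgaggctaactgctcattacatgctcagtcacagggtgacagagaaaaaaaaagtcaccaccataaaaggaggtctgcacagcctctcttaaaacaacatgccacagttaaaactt
The CXCR3 stretch held 3 such loose matches, all on the opposite strand, and the CXCR4 and GPR183 stretches shown held none. The windows of the other CXCR4 starts held 1 each, at -81 to -72 and at -54 to -45. TATAAA lay at -30 to -25 from the CXCR4 start and at -243 to -238 and -175 to -170 from the GPR183 start. GC content was 54.8% for CXCR3, 68% for CXCR4 and 34.4% for GPR183, with 1, 24 and 2 CpG pairs. The stricter kB consensus was searched on both strands in 300 bases around each start, 250 before and 50 after, at 9 starts of 5 members (CXCR3, CXCR4, CXCR5, CCR6 and GPR183), and had no match. Of 35116 promoter windows of that length in the same table, 11.3% held the kB consensus, 58.7% held GGGNNNNNCC and 11.5% held TATAAA on either strand, 7.33% on the gene's strand. A match is a string of letters, not a site.

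Depth ran from 15.2 to 37.5 M recovered reads per library, and mitochondrial transcripts took 1.85% to 5.34% of them. They took 1.85% to 3.55% in p50 knockout cells, below the 3.68% to 5.03% in control cells, and their part in the results was not tested. Transcripts of the targeted gene fell in the p50, p52 and RelA knockouts, by 0.59 (NFKB1), 0.44 (NFKB2) and 0.69 (RELA) on the log2 scale. Falls were not confined to the targeted gene. NFKB1 also fell by 0.46 in RelA knockout cells and by 0.29 in libraries with the RelB guide. In RelA knockout cells NFKB2 fell by 0.36 and RELB by 0.82 (limma adjusted p = 0.000284 and 1.30e-08), the latter a larger fall than that of RELA. NFKB1 did not differ between the p50 and RelA knockouts (limma adjusted p = 0.0914), nor NFKB2 between the RelA and p52 knockouts (0.263). REL differed by -0.02 in the libraries with the cRel guide (limma adjusted p = 0.959), and RELB rose by 0.31 in those with the RelB guide (limma adjusted p = 0.000169), so these are called the cRel-labelled and RelB-labelled libraries. A guide can remove a protein and leave its messenger RNA, so transcript level alone does not check these 2 labels. REL was lower by 0.49 in RelB-labelled libraries (limma adjusted p = 0.0240), though their range overlapped that of the control. RELB was higher by 0.38 in cRel-labelled libraries (limma adjusted p = 0.000374), and also by 0.36 in p52 and 0.23 in p50 knockout cells. What these values mean for the 2 labels was not tested. Control library 3, p52 library 3 and RelA library 2 stood apart from their groups in the balance of long and short transcripts, with rank correlations of deviation with length of -0.45, -0.38 and -0.31; without these 3 libraries no call of a receptor against the control changed. All 13 B-cell markers reported here, MS4A1 and CD79A among them, were above the test level. The T-cell genes CD3D and CD28 averaged 0.37 and 0.33 normalised reads, and the monocyte genes CD14 and CD68 1.22 and 0.89. Not all markers of other lineages were that low. Of 11 measured T and NK cell markers, 5 were above the test level. These were NKG7 at 443, PRF1 at 32.2, GNLY at 19.7, CD3E at 18.5 and CD4 at 12.0 normalised reads. Of 8 measured myeloid markers, 2 were above it, CSF1R at 523 and ITGAM at 188.

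**Figure D1:**
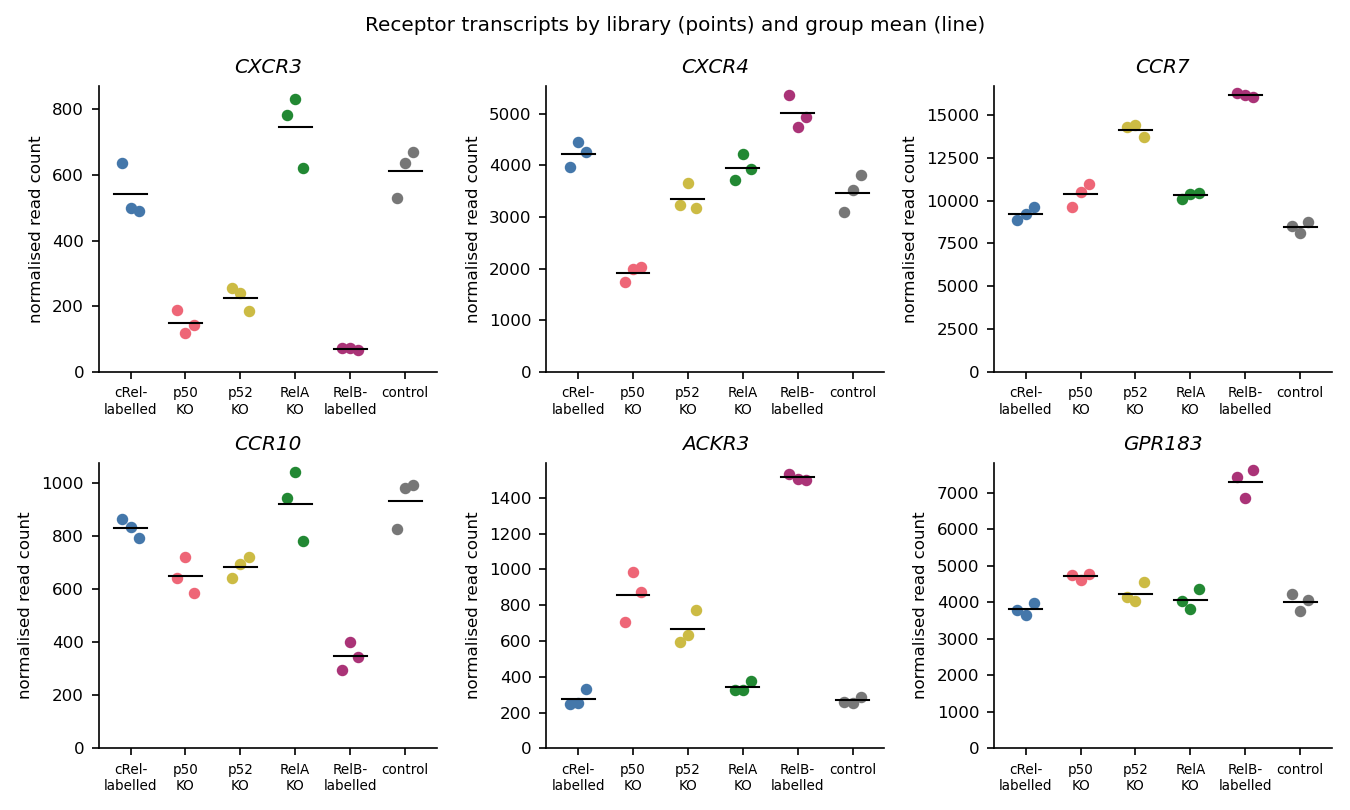
Normalised read count (y axis, linear, from 0) of the 6 tested receptors in each library (points) of the 5 knockouts and, at the right, the control; the black line is the group mean. CXCR3 and CCR10 are lowest and ACKR3, CCR7 and GPR183 highest in RelB-labelled libraries, and CXCR4 is lowest in p50 knockout cells.

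The p50 and RelB-labelled libraries differed from control in all 6 tested receptors, the p52 knockout in 4, and the RelA and cRel-labelled libraries in 1 each. CXCR3 and CCR10 fell and ACKR3 and CCR7 rose in the p50, p52 and RelB-labelled libraries. CXCR4 moved in opposite directions, down in p50 knockout cells and up in the RelB-labelled and, less firmly, the cRel-labelled libraries. GPR183 rose in RelB-labelled libraries and, by a small step, in p50 knockout cells. A receptor was called at a limma adjusted p under 0.05, computed on log2(normalised count + 1) over 12381 genes. At that threshold 36.7% of all tested genes were called in p50 knockout cells, 67.8% in RelB-labelled libraries, 50.8% in p52 knockout cells, 5.55% in RelA knockout cells and 6.09% in cRel-labelled libraries. The 5 comparisons share the same 3 control libraries, so they are not independent of each other. In bulk RNA, fewer cells with a transcript and less of it per cell cannot be told apart.

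**Figure D2:**
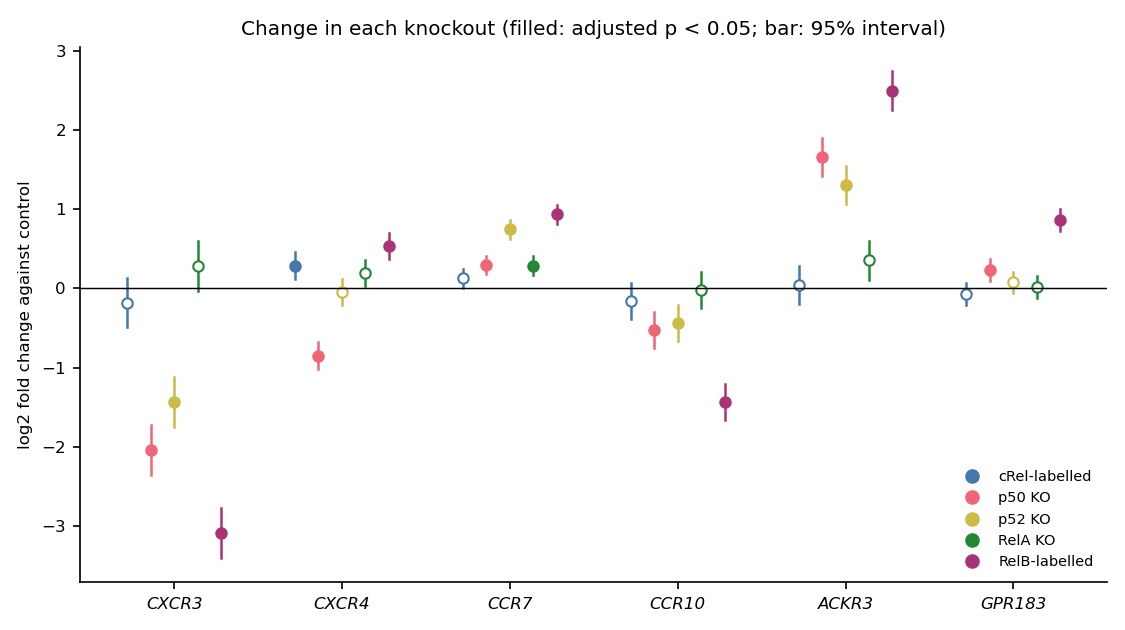
Log2 fold change of each receptor in each knockout against control (y axis; limma, n = 3 against 3), with its 95% interval as a bar; filled points passed an adjusted p of 0.05 and open points did not. The CXCR3 estimates run from 0.28 in RelA knockout cells to -3.09 in RelB-labelled libraries, and those of ACKR3 from 0.04 in the cRel-labelled to 2.50 in RelB-labelled libraries.

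CXCR3 (ENSG00000186810), the inflammatory receptor, covered the widest range, 10.6-fold between the highest and lowest group mean. It stood at 638, 499.6 and 489.6 normalised reads in cRel-labelled libraries, 188, 118 and 144 in p50 knockout cells, 254, 239 and 186 in p52 knockout cells, 784, 833 and 622 in RelA knockout cells and 72.9, 71.7 and 67.3 in RelB-labelled libraries, against 530.4, 638 and 670.2 in control cells. Every p50, p52 and RelB-labelled library lay below every control, and the cRel-labelled and RelA libraries overlapped the controls. The log2 fold change was -3.09 (SE 0.15, limma adjusted p = 1.81e-13) in RelB-labelled libraries, an 8.53-fold lower level. It was -2.04 (SE 0.15, limma adjusted p = 3.25e-09) in p50 knockout cells and -1.44 (SE 0.15, limma adjusted p = 9.89e-08) in p52 knockout cells. The difference of the RelA knockout from control was 0.28, with a 95% interval of -0.03 to 0.59, and that of the cRel-labelled libraries -0.18, with an interval of -0.49 to 0.13; neither passed the test. The RelB-labelled libraries held 50, 75 and 66 reads of CXCR3, so its level there rests on the fewest reads of any tested receptor.

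ACKR3 (ENSG00000144476), the CXCL12-clearing receptor, ran the other way. Its level was 248, 255 and 329.5 normalised reads in cRel-labelled libraries, 708, 985 and 876 in p50 knockout cells, 592, 636 and 772 in p52 knockout cells, 328, 325 and 374 in RelA knockout cells and 1534, 1509 and 1502 in RelB-labelled libraries, against 260.2, 254 and 289.6 in control cells. The p50, p52, RelA and RelB-labelled libraries all lay above the highest control, and the cRel-labelled ones overlapped it. ACKR3 rose 5.64-fold in RelB-labelled libraries (log2 fold change 2.50, SE 0.12, limma adjusted p = 9.22e-14), 3.16-fold in p50 knockout cells (1.66, SE 0.12, limma adjusted p = 1.67e-09) and 2.47-fold in p52 knockout cells (1.30, SE 0.12, limma adjusted p = 1.29e-08). In the RelA knockout the log2 difference was 0.35, with an interval of 0.11 to 0.60 and a limma adjusted p of 0.0877 that missed the threshold.

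Set beside each other per kilobase of exon, ACKR3 and CXCR3 changed places. The ratio of ACKR3 to CXCR3 transcript was 0.434 ± 0.118 in cRel-labelled libraries, 5.02 ± 1.90 in p50 knockout cells, 2.52 ± 0.806 in p52 knockout cells, 0.389 ± 0.0949 in RelA knockout cells and 17.8 ± 0.603 in RelB-labelled libraries, against 0.364 ± 0.0385 in control cells (SD, n = 3 each). CXCR3 was thus the more abundant of the pair in every cRel-labelled, RelA and control library, and ACKR3 in every p50, p52 and RelB-labelled library. ACKR3 was below its partner receptor for CXCL12, CXCR4, in all 18 libraries: the ratio of ACKR3 to CXCR4 was 0.0648 ± 0.0102 in cRel-labelled libraries, 0.437 ± 0.0440 in p50 knockout cells, 0.197 ± 0.0370 in p52 knockout cells, 0.0855 ± 0.00892 in RelA knockout cells and 0.298 ± 0.0157 in RelB-labelled libraries, against 0.0763 ± 0.00591 in control cells (SD, n = 3 each). That ratio was highest in p50 knockout cells, where CXCR4 was lowest. These ratios are descriptions with no test.

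**Figure D3:**
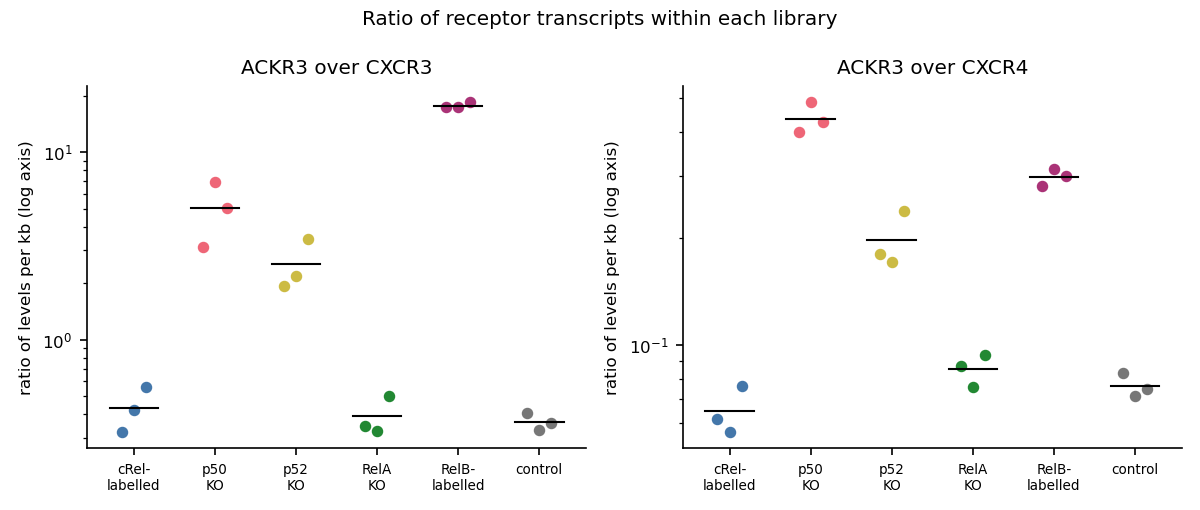
Ratio of ACKR3 to CXCR3 (left) and of ACKR3 to CXCR4 (right) per kilobase in each library (log y axes; points are libraries, the line is the group mean, control at the right). The RelB-labelled libraries lie between 17.4 and 18.5 on the left and the p50 libraries between 0.399 and 0.485 on the right.

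CXCR4 (ENSG00000121966), the signalling CXCL12 receptor, was the one receptor whose called changes had opposite signs. It stood at 3971, 4445 and 4259 normalised reads in cRel-labelled libraries, 1747, 2000.3 and 2024 in p50 knockout cells, 3225, 3659 and 3174 in p52 knockout cells, 3718, 4221 and 3938 in RelA knockout cells and 5359, 4743 and 4944 in RelB-labelled libraries, against 3095, 3516 and 3806 in control cells. All p50 libraries were below, and all RelB-labelled and cRel-labelled libraries above, the whole control range, while p52 and RelA libraries overlapped it. CXCR4 fell by 0.85 on the log2 scale in p50 knockout cells (SE 0.08, limma adjusted p = 1.12e-07) and rose by 0.53 in RelB-labelled libraries (SE 0.08, limma adjusted p = 4.46e-06). The direct difference, p50 knockout minus RelB-labelled libraries, was -1.38 (SE 0.08, limma adjusted p = 7.98e-12), a 2.61-fold lower level. The rise in cRel-labelled libraries was 0.29 (SE 0.08, limma adjusted p = 0.0344), and it depended on single libraries: the adjusted p was 0.154 without cRel-labelled library 2, 0.117 without cRel-labelled library 3, 0.159 without control 1 and 0.0539 without control 2. In the p52 knockout the difference was -0.05 with an interval of -0.21 to 0.12.

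CCR7 (ENSG00000126353), the lymph node homing receptor, was the most abundant of the 8 per kilobase, at 3372 normalised reads per kb in control cells. Its level was 8867, 9232 and 9629 normalised reads in cRel-labelled libraries, 9633, 10533 and 10983 in p50 knockout cells, 14329, 14403 and 13734 in p52 knockout cells, 10112, 10375 and 10459 in RelA knockout cells and 16289, 16164 and 16072 in RelB-labelled libraries, against 8544, 8103 and 8725 in control cells. Every knockout library lay above the highest control. CCR7 rose by 0.94 on the log2 scale in RelB-labelled libraries (SE 0.06, limma adjusted p = 5.48e-12) and by 0.74 in p52 knockout cells (SE 0.06, limma adjusted p = 1.92e-09). The rises in the p50 and RelA knockouts were smaller, 0.29 in each (SE 0.06; limma adjusted p = 0.000427 and 0.00300), and the cRel-labelled difference of 0.13 missed the threshold (limma adjusted p = 0.205). CCR7 was the 1 receptor called in RelA knockout cells.

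CCR10 (ENSG00000184451), the receptor of plasma cells and skin-homing T cells, fell in 3 of the 5 groups. It stood at 867, 834 and 793 normalised reads in cRel-labelled libraries, 643, 723 and 586 in p50 knockout cells, 642, 695 and 720.0 in p52 knockout cells, 943, 1041 and 783 in RelA knockout cells and 296, 402 and 345 in RelB-labelled libraries, against 828, 982 and 993 in control cells. The p50, p52 and RelB-labelled libraries were all below the lowest control. The log2 fold change was -1.43 in RelB-labelled libraries (SE 0.11, limma adjusted p = 1.67e-10), -0.52 in p50 knockout cells (SE 0.11, limma adjusted p = 0.000812) and -0.44 in p52 knockout cells (SE 0.11, limma adjusted p = 0.00178). Exons of CCR10 overlap those of CNTNAP1 on the opposite strand, and no source used here says whether reads were counted by strand, so reads of the pair may be mixed. CNTNAP1 differed from control by -0.02, 0.08 and -0.01 on the log2 scale in the p50, p52 and RelB-labelled libraries, none of which passed the test, and it rose by 0.29 in the cRel-labelled ones (limma adjusted p = 0.0381).

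GPR183 (ENSG00000169508), the oxysterol receptor, was 3796, 3666 and 3997 normalised reads in cRel-labelled libraries, 4755, 4603 and 4791 in p50 knockout cells, 4139, 4028 and 4560.3 in p52 knockout cells, 4029, 3810.4 and 4377 in RelA knockout cells and 7425, 6852 and 7636 in RelB-labelled libraries, against 4233, 3774 and 4066 in control cells. The RelB-labelled libraries were far above all others, the p50 libraries just above the controls, and the cRel-labelled, p52 and RelA libraries overlapped the controls. GPR183 rose by 0.86 on the log2 scale in RelB-labelled libraries (SE 0.07, limma adjusted p = 1.73e-10) and by 0.23 in p50 knockout cells (SE 0.07, limma adjusted p = 0.00899). Without control 2 the adjusted p of the p50 rise was 0.0538. GPR183 lies inside UBAC2, which is on the opposite strand and shares no exon with it. UBAC2 fell by 0.53 in p52 knockout cells (limma adjusted p = 6.09e-06), where the GPR183 difference of 0.08 missed the threshold (limma adjusted p = 0.353), and by 0.28 in RelB-labelled libraries (limma adjusted p = 0.00272), where GPR183 rose.

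CXCR5 (ENSG00000160683) and CCR6 (ENSG00000112486) were close to absent. CXCR5, the follicle receptor, had 1 to 13 reads per library, and its group means all overlapped, from 4.90 normalised reads in control cells to 7.11 in RelA knockout cells. Exons of CXCR5 overlap those of BCL9L on the opposite strand, which averaged 453 normalised reads. CCR6, the CCL20 receptor, had 9 reads in cRel-labelled libraries together, 7 in p50 knockout cells, 10 in p52 knockout cells, 10 in RelA knockout cells and 0 in RelB-labelled libraries, against 10 in control cells. A count of 0 in 1 library allows up to 3 reads there, and 0 over the 3 RelB-labelled libraries allows up to 3 for them together. With no filter on low values, limma gave the RelB-labelled difference of CCR6 from control an adjusted p of 0.00204, but at 1 to 5 reads per control library a fold has no use and none is given.

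The order of the groups differed from receptor to receptor. CXCR3 ran from the RelA knockout, control and cRel-labelled libraries, whose ranges overlapped in turn, to the p52 and p50 knockouts, which overlapped each other, to the RelB-labelled libraries, which stood apart below. CCR10 kept the same 3 tiers, with control highest by its mean. ACKR3 had the RelB-labelled libraries apart at the top, then the overlapping p50 and p52 knockouts, then the RelA, cRel-labelled and control libraries, neighbours of which overlapped. For CCR7 the RelB-labelled libraries, the p52 knockout, the overlapping p50 and RelA knockouts, the cRel-labelled libraries and the control followed one another without other overlaps between neighbours. For CXCR4 only the 2 ends were apart, the RelB-labelled libraries above and the p50 knockout below, and the p52, RelA, cRel-labelled and control libraries formed a chain of overlapping ranges. For GPR183 the RelB-labelled libraries and then the p50 knockout stood apart above the rest, whose neighbours overlapped. Across receptors, per kilobase in control cells, CCR7 at 3372 was followed by GPR183 at 2367, CXCR4 at 1561, CCR10 at 357, CXCR3 at 328, ACKR3 at 119, CXCR5 at 1.11 and CCR6 at 0.697 normalised reads per kb.

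Whether receptor levels depended on which subunit was targeted was tested directly. An F-test among the 5 knockouts passed for all 6 tested receptors, where 78.8% of all tested genes passed, with limma adjusted p from 1.03e-13 for CXCR3 to 1.15e-09 for CCR10. Of 60 tests over the 10 pairs of knockouts, 49 passed when adjusted within their pair, and 52 when adjusted over all pairs together, the 3 further ones being in the RelA and cRel-labelled pair. All 6 receptors differed between the p50 and RelB-labelled libraries (53.1% of tested genes), the p52 and RelB-labelled (45.4%), the RelA and RelB-labelled (67.2%), the cRel-labelled and RelB-labelled (65.8%) and the p50 and cRel-labelled libraries (31.1%). There were 5 between the p50 and RelA knockouts (39.2%), 5 between the RelA and p52 knockouts (52.5%), 5 between the cRel-labelled and p52 libraries (45.9%) and 4 between the p50 and p52 knockouts (22.2%). The RelA and cRel-labelled libraries differed in 0 of 6 when adjusted within the pair, where 11.0% of all genes differed. At an unadjusted p under 0.05, 3 receptors differed there, and these passed when adjusted over all pairs: CXCR3 by 0.46, CCR7 by 0.16 and ACKR3 by 0.31 (limma adjusted p = 0.0168, 0.0284 and 0.0354). Within the pair, edgeR called CXCR3, DESeq2 called CXCR3 and CCR7, the replicate block called CXCR3 and ACKR3, and a fit of only these 2 groups called all 3. CXCR3 also passed without cRel-labelled library 1 or RelA library 3, and ACKR3 without cRel-labelled library 3.

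The p50 and p52 knockouts, which each remove a partner of the Rel proteins, had their smallest log2 differences for CCR10 and GPR183 and their largest for CXCR4. CXCR4 was lower by 0.80 on the log2 scale in the p50 than in p52 knockout cells (SE 0.08, limma adjusted p = 2.16e-07). CXCR3 was lower by 0.60 (SE 0.15, limma adjusted p = 0.00555) and CCR7 by 0.45 (SE 0.06, limma adjusted p = 5.53e-06). ACKR3 was higher by 0.36 (limma adjusted p = 0.0317), a call that was lost without p50 library 2 or 3 or p52 library 1 or 2, at adjusted p of 0.167, 0.0947, 0.131 and 0.105, and in a fit of only these 2 groups (0.0699). The CCR10 difference was -0.08 with an interval of -0.31 to 0.15, and that of GPR183 0.15 with an interval of 0.02 to 0.29, which passed without p52 library 3 (adjusted p = 0.0310) and with a replicate block (0.0285). For the subunits of the non-canonical dimer, the p52 knockout differed from the RelB-labelled libraries by 1.65 for CXCR3, 0.99 for CCR10, -1.19 for ACKR3 and -0.78 for GPR183 (limma adjusted p = 1.17e-08, 1.91e-07, 3.54e-08 and 3.39e-09). CXCR4 differed by -0.58 in the same pair (limma adjusted p = 4.00e-06). The CCR7 difference of -0.19 (limma adjusted p = 0.00883) was lost under quantile normalisation, at -0.12 and an adjusted p of 0.118. Other pair calls that single libraries decided were CCR7 and CCR10 between the p50 and cRel-labelled libraries, CCR10 between the cRel-labelled and p52 libraries, CXCR4 between the RelA and p52 knockouts and between the cRel-labelled and RelB-labelled libraries, and GPR183 between the p50 and RelA knockouts. Of these, CXCR4 between the RelA and p52 knockouts was also lost under quantile normalisation (adjusted p = 0.144) and without the 3 libraries that stood apart in transcript length (0.128), and CCR7 between the p50 and cRel-labelled libraries with no filter on low values (0.0507). GPR183 between the cRel-labelled and p52 libraries, lower by 0.15 and not called, passed with a replicate block (0.0177), under quantile normalisation (0.00548) and in DESeq2 (0.0458).

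The ligands of these receptors, and the enzymes that make or break them, were measured in the same libraries. Of 18 entries 9 were tested. Among all tested genes 4.17% rose and 1.92% fell in cRel-labelled libraries, 17.0% and 19.6% in p50 knockout cells, 24.5% and 26.4% in p52 knockout cells, 2.92% and 2.63% in RelA knockout cells and 33.1% and 34.7% in RelB-labelled libraries. In the cRel-labelled libraries 4 rose and 0 fell (list median 0.16, all genes -0.02), in p50 knockout cells 1 rose and 1 fell (0.04, all genes -0.003), in p52 knockout cells 4 rose and 0 fell (0.20, all genes 0.002), in RelA knockout cells 3 rose and 1 fell (0.40, all genes -0.01), and in RelB-labelled libraries 5 rose and 2 fell (0.57, all genes -0.004). CXCL12, the ligand shared by CXCR4 and ACKR3, rose to 830 ± 50.5 normalised reads in RelB-labelled libraries, 797 ± 30.0 in p52 knockout cells and 573 ± 3.00 in p50 knockout cells and fell to 174 ± 30.5 in RelA knockout cells, against 341 ± 7.78 in control cells (SD, n = 3 each; log2 fold changes 1.28, 1.22, 0.75 and -0.98). CCL20, the CCR6 ligand, rose by 1.80 in RelB-labelled libraries, 1.09 in p52 knockout cells and 0.51 in RelA knockout cells. CCL19, the CCR7 ligand, rose to 32.5 ± 4.71 normalised reads in cRel-labelled libraries, 28.7 ± 6.64 in p52 knockout cells and 24.7 ± 10.1 in RelB-labelled libraries, against 5.30 ± 3.22 in control cells (SD, n = 3 each). The CXCR3 ligands were split: CXCL9 rose in cRel-labelled libraries (1.54) and the RelA knockout (1.92), while CXCL10 rose in cRel-labelled libraries (0.70) and fell by 0.39 in p50 knockout cells and by 1.19 in RelB-labelled libraries. HSD3B7, which breaks down the GPR183 ligand, fell by 1.47 in RelB-labelled libraries, and DPP4, a protease that inactivates CXCL12, rose by 0.60 in cRel-labelled libraries, 0.41 in p52 knockout cells and 0.57 in each of the RelA and RelB-labelled libraries. The CXCL10 call in p50 knockout cells was lost without p50 library 1 or 2 or control 3, which left 1 call of 2.

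Other chemokine and trafficking receptors, 31 on the list and 16 tested, had more falls than rises in RelB-labelled, p52 and p50 libraries. Among all tested genes falls also outnumbered rises there, at 34.7% against 33.1%, 26.4% against 24.5% and 19.6% against 17.0%. In RelA knockout cells 2.63% of all tested genes fell and 2.92% rose, and in cRel-labelled libraries 1.92% fell and 4.17% rose. The median of all genes lay between -0.02 and 0.002 in the 5 groups. In the RelB-labelled libraries 5 rose and 9 fell (median -0.68, all genes -0.004), in p52 knockout cells 4 rose and 8 fell (median -0.24), in p50 knockout cells 3 rose and 6 fell (-0.25), in RelA knockout cells 2 rose and 3 fell (0.11) and in cRel-labelled libraries 4 rose and 1 fell (0.14). S1PR1, which lets lymphocytes leave tissue, fell to 556 ± 45.4 normalised reads in RelB-labelled libraries, 528 ± 67.4 in p52 knockout cells, 529.7 ± 36.8 in p50 knockout cells and 893 ± 101 in cRel-labelled libraries, against 1190.0 ± 54.9 in control cells (SD, n = 3 each). CD69, which pulls S1PR1 off the surface, rose by 1.90, 0.70, 0.83 and 0.72 in the same 4 groups and fell by 0.81 in RelA knockout cells. PTGER4, a prostaglandin E receptor, had log2 changes of -3.33 in RelB-labelled libraries and -1.50 in p50 knockout cells. The integrin chain ITGB7, a partner in gut homing, fell by 1.00 in RelB-labelled libraries, 0.78 in p52 knockout cells and 0.33 in p50 knockout cells. SELPLG, a selectin ligand, rose by 1.13, 1.08 and 0.50 in the RelB-labelled, p52 and p50 libraries. ACKR1, an atypical chemokine receptor best known from red cells, rose by 2.04 in the cRel-labelled and 1.01 in the p52 libraries and fell by 1.19 in the RelB-labelled ones. Its levels were low, at 68.9, 33.1 and 6.66 normalised reads in these 3 groups against 16.0 in control cells.

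**Figure D4:**
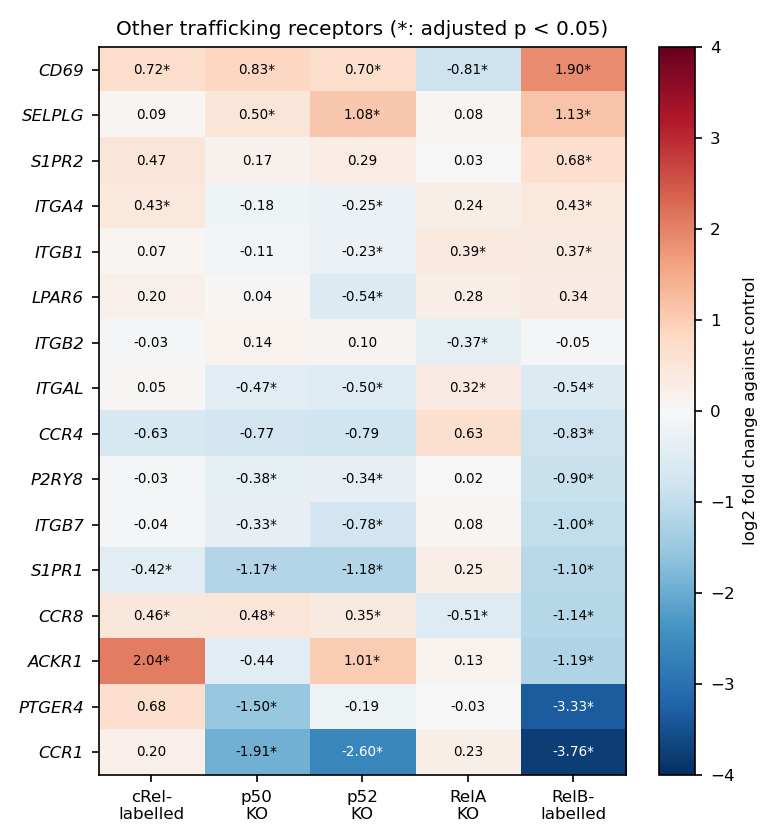
Log2 fold change against control (colour and printed value) of the 16 tested trafficking receptors outside the 8 members, in each knockout (columns); a star marks an adjusted p under 0.05. CD69 and SELPLG head the list and CCR1, at 0.659 normalised reads in RelB-labelled libraries against 20.6 in control cells, closes it.

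Signalling genes downstream of the receptors were called at a share near that of all tested genes in the RelB-labelled (67.8%) and p52 libraries (50.8%). They were called at a higher share than all tested genes in p50 knockout cells (36.7%) and cRel-labelled libraries (6.09%). In RelA knockout cells 5.55% of all tested genes were called. Of 46 tested, 12 rose and 17 fell in RelB-labelled libraries, 10 rose and 12 fell in p52 knockout cells, 8 rose and 18 fell in p50 knockout cells, 2 rose and 2 fell in RelA knockout cells and 5 rose and 5 fell in cRel-labelled libraries, with list medians of -0.04, -0.08, -0.12, 0.003 and -0.05. GNAQ, a G-protein alpha subunit, rose by 3.67 on the log2 scale and RGS1, which shortens G-protein signalling from chemokine receptors, by 2.89 in RelB-labelled libraries. PTK2 and PTK2B, the focal adhesion kinases, rose there by 1.55 and 0.68. ARRB1, a beta-arrestin that takes receptors off the surface, rose by 0.94 in p52 knockout cells. PIK3CG, the catalytic subunit of the G-protein-activated PI3-kinase, fell by 1.06 in p50 knockout cells and by 0.63 in RelA knockout cells and rose by 0.81 in cRel-labelled libraries. RGS16, another G-protein brake, fell by 0.67 in the p50 and 0.59 in cRel-labelled libraries, and RGS1 fell by 0.65 in RelA knockout cells. Single libraries moved 2 of these counts: the 10 calls of the cRel-labelled libraries became 5, 6 and 6 without their library 1, 2 and 3, and the 4 of the RelA knockout became 2 without control 1.

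Of 19 transcription factors linked to these receptors, 8 rose and 8 fell in RelB-labelled libraries and 4 and 8 in p52 knockout cells. In p50 knockout cells 2 rose and 9 fell, in RelA knockout cells 4 and 2 and in cRel-labelled libraries 4 and 3. Among all tested genes 33.1% rose and 34.7% fell in RelB-labelled libraries and 24.5% and 26.4% in p52 knockout cells. These shares were 17.0% and 19.6% in p50, 2.92% and 2.63% in RelA and 4.17% and 1.92% in cRel-labelled libraries. List medians in that order were -0.06, -0.004, -0.19, 0.03 and 0.02, against -0.004, 0.002, -0.003, -0.01 and -0.02 for all genes. KLF2, which drives S1PR1 in lymphocytes, fell by 1.10 in p50 knockout cells and 0.86 in cRel-labelled libraries and rose by 0.52 in RelA knockout cells. GATA3, better known from T cells, fell by 2.33, 1.02 and 2.06 in the RelB-labelled, p52 and p50 libraries. PRDM1, the plasma-cell factor, fell by 1.26 in the p52 and 1.04 in p50 knockout cells. BCL6, the germinal-centre repressor, fell by 2.62 in RelB-labelled libraries and rose by 0.90 in the cRel-labelled ones, and EBF1, a B-cell identity factor, rose by 1.09 and 0.41 in the same 2 groups. Without control 2 the 11 calls of the p50 knockout became 6, and without control 1 or 3 the 6 calls of the RelA knockout became 3.

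Markers of other cell types moved in part with the receptors, and their part in the results was not tested. The myeloid list, 10 genes with 8 in the table, summed to 910 to 984 normalised reads in RelB-labelled libraries, 841 to 945 in p52 knockout cells, 828 to 906 in p50 knockout cells, 465 to 506 in RelA knockout cells and 567 to 656 in cRel-labelled libraries, against 519 to 544 in control cells. CSF1R and ITGAM made up that sum, with CD14 and CD68 near 0. The list of 14 T and NK cell markers, 11 in the table, summed to 754 to 832 in RelB-labelled libraries, 532 to 603 in p52 knockout cells, 481 to 531 in p50 knockout cells, 480.1 to 562 in RelA knockout cells and 366 to 389 in cRel-labelled libraries, against 447 to 604 in control cells, with NKG7 up by 0.73 in RelB-labelled libraries and CD3D near 0. The plasma cell list of 10 summed to 40374 to 41970.2 in RelB-labelled libraries, 39277 to 40394 in p52 knockout cells, 38967 to 40244 in p50 knockout cells, 46443 to 47436 in RelA knockout cells and 38843 to 39368 in cRel-labelled libraries, against 44101 to 44606 in control cells. Its gene PRDM1 fell by 1.56 in RelB-labelled libraries while SDC1 rose by 1.34. The 13 B-cell markers were not level either. They summed to 146796 to 157983 in RelB-labelled libraries, 132776 to 142267 in p52, 120168 to 128700 in p50 and 126143 to 130254 in RelA knockout cells. Sums were 136535 to 140652 in cRel-labelled libraries and 126890 to 143510 in control cells. In RelB-labelled libraries 7 of the 13 rose and 1 fell, where 33.1% of all tested genes rose and 34.7% fell.

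Genes whose level followed a receptor most closely over the 18 libraries are given with Pearson's r of log2(value + 1), as a description: the points fall in 6 groups and share library and depth. Among 9846 genes, CXCR3 was followed by ACTB (r = 0.989), SUMO3 (0.977) and PARP1 (0.975). ACTB, beta-actin, averaged 358807 normalised reads in cRel-labelled libraries, 264743 in p50 knockout cells, 281491 in p52 knockout cells, 389050.0 in RelA knockout cells and 220677 in RelB-labelled libraries, against 382552 in control cells. CXCR4 was followed by CARD9 (0.951), SEC23B (0.919) and LDLRAD4 (0.919), and CCR7 by ZER1 (0.981), SPATA31D1 (0.978) and WDTC1 (0.975). CCR10 was followed by LCMT2 (0.986), SLC25A33 (0.980) and UTP3 (0.976), ACKR3 by ACCS (0.975), ZNF248 (0.974) and BTNL9 (0.972), and GPR183 by SERPINB2 (0.985), the costimulatory ligand CD80 (0.977) and C3orf52 (0.975).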

How the data were processed

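Polyadenylated RNA of GM12878 cells was sequenced in 18 libraries, 3 in each of 6 groups, prepared by a directional protocol from 1 µg of total RNA, per the labels' protocols. The submitters' processing notes name STAR 2.5.2b as a tool, the build GRCh37, featureCounts 1.5.1 for counting and DESeq2 1.14.1; no source used here states the gene annotation or the strand setting. The deposited values are a normalised signal: the authors' read counts divided by 1 size factor per library. Whole read counts were recovered from the deposited values here, for 100% of 308790 values within 0.0001.

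Log2(deposited value + 1) was tested in limma 3.58.1 with an intensity trend, in 1 fit of all 18 libraries with a mean per group, two-sided, for 12381 genes with a mean of at least 10. P-values were adjusted by Benjamini-Hochberg within each contrast and called at an adjusted p under 0.05. The test was also run on simulated data with known changes. A log2 fold change on this scale understates the change of genes with few reads. Alternatives were other pseudocounts, filters and scalings, a replicate block, edgeR 4.0.16 and DESeq2 1.42.0 on the recovered read counts, fits of only the groups compared, and leaving out libraries. GENCODE 29 on GRCh38 gave exon lengths and overlaps by gene identifier, and RefSeq on GRCh38.p14 gave promoter sequences.

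The members, gene lists and tests were chosen with earlier results of these data known. All 8 members are described, in full where called, and from each gene list up to 4 called genes per contrast with the smallest p, and a gene so named is also given in other contrasts. The overlapping genes CNTNAP1, UBAC2 and BCL9L, CCR1 in a caption and the single marker genes were chosen after their values were seen. Some genes of the lists are not reported here and were left out of the list counts. The 3 libraries of a group are called biological replicates by the labels, and p-values describe no more than the spread among them. The mean chi-square per gene between libraries of a group was 3.29 to 33.34, so they differed by more than the counting of reads alone would give. This cannot tell separate cultures from separate library preparations of the same culture or RNA. Same-numbered libraries were taken to pair where all 3 correlations of their deviations from the group mean exceeded 0.1. None of 5 knockouts met this with the control. The p52 correlations with it were 0.0617, 0.151 and 0.397 and the RelB-labelled ones 0.0932, 0.0575 and 0.126. Those of the cRel-labelled and p50 libraries were all below 0, and the RelA ones had mixed signs. Of 10 pairs of knockouts 1 met it, the cRel-labelled and p50 libraries (correlations of 0.200, 0.189 and 0.165).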

Additional observations from a re-analysis of the deposited data

How the results depend on the processing

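The comparisons with control were recomputed under each alternative: 494 of the single-receptor values kept direction and side of the threshold, 2 came to pass it, 5 no longer did and 9 changed sign; between knockouts, F-tests included, the numbers were 1129, 17, 26 and 4. No call changed sign: all 13 changes were of differences that passed in neither setting. CXCR4 in the p52 knockout was 0.0609 under quantile normalisation and 0.0584 without the 3 libraries shifted in length, and GPR183 between the RelA and p52 knockouts was 0.0405 without those 3. With a library left out, the log2 difference from control ran from -0.0887 to 0.116 for ACKR3 in the cRel-labelled libraries, -0.129 to 0.0203 for CXCR4 in the p52 knockout, and -0.116 to 0.0889 for CCR10 and -0.0369 to 0.0632 for GPR183 in the RelA knockout, and that of CCR7 between the p50 and RelA knockouts from -0.0341 to 0.0605. The number of receptors called in the cRel-labelled libraries ranged from 0 to 1 when a library was left out, since CXCR4 was lost without cRel-labelled library 2 or 3 or control 1 or 2; the GPR183 rise in the p50 knockout was lost without control 2 (adjusted p = 0.0538) and that in the p52 knockout passed under quantile normalisation (adjusted p = 0.0255). With a replicate block 2 receptors instead of 1 were called in the RelA knockout, ACKR3 joining CCR7 (adjusted p = 0.0294), and 53 of 60 pair tests passed instead of 49; the block changed no other call against control and none between the p50 and cRel-labelled libraries, the pair whose numbers matched. Over all groups, the best-correlated partner of 16 of 18 libraries carried the same replicate number, a hint from the data and not from the design. No scaling moved the median of all genes by over 0.1 on the log2 scale. Of the counts for the lists of ligands, signalling genes and transcription factors, those moved by single libraries stand beside them in the report, and that of ligands in the cRel-labelled libraries was 2 instead of 4 at a mean of at least 100, where fewer genes were tested. Depth limits CXCR5 and CCR6, which had 13 reads or fewer in every library. The causes of these changes were not tested.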
